A study of Mus musculus with 4 samples.

Results

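The genes described here belong to the integrated stress response and the unfolded protein response, the programmes with which cells answer amino acid shortage and misfolded protein in the endoplasmic reticulum (ER). The members were 10 genes, Ppp1r15a, Ddit3, Atf4, Xbp1, Herpud1, Trib3, Eif2ak3, Ern1, Atf6 and Asns, and every probe set annotated to one of them alone was taken, which gave 22 of the 22690 probe sets in the table; 12393 genes had a probe set of their own. The study profiled RNA of mouse CD4 cells on 4 Affymetrix MOE430A arrays. There were 2 arrays of san/san mice, homozygous for the sanroque allele, and 2 arrays of +/+ (wild type) mice. Sanroque is a recessive allele from a screen in which male C57BL/6 mice were mutagenised with ENU and their descendants examined for antinuclear autoantibodies; the affected gene, Rc3h1, codes for Roquin-1, a protein that binds mRNAs and promotes their decay. The labels give no age or sex for the mice whose cells were used and do not say whether an array holds RNA of 1 mouse or of a pool.

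In the integrated stress response, kinases phosphorylate the translation initiation factor eIF2alpha. This lowers protein synthesis overall but favours translation of the mRNA of ATF4, a transcription factor that raises genes of amino acid supply and, with CHOP, of stress recovery or cell death. In the unfolded protein response the ER sensors PERK, IRE1 and ATF6 detect misfolded protein. PERK feeds into ATF4, IRE1 splices the mRNA of XBP1, and cleaved ATF6 enters the nucleus. Secretory lymphocytes such as plasma cells depend on XBP1, and stimulated T cells engage parts of the same pathway.

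Both number 1 arrays were hybridised and scanned on 1 day and both number 2 arrays on another, per the experiment information, so each genotype had 1 array per day and every difference could be read within the pairs 1 and 2. The experiment information describes the number 1 arrays as sorted T cells, and for +/+ array 2 it holds the letters CBA, with no explanation in the labels. No other array carries these letters, and whether they name a strain is not stated. If the strain background differed between the genotypes, it and the mutation could not be told apart. The trimmed mean signal was 99.97 and 99.59 on the san/san arrays and 99.79 and 99.61 on the +/+ arrays. Cd4, the marker by which the cells are named, had signals of 585.9 and 570.2 in san/san and 533.3 and 613.5 in +/+ by its brighter tested probe set. By the other, 1427779_a_at, it had 211.1 and 237.4 in san/san and 277.2 and 254.7 in +/+, lower without overlap (log2 change -0.24, limma adjusted p = 0.751). Cd3e and Cd3g were bright on all 4 arrays, and Cd5, a further T cell marker, had 693.7 and 759.8 in san/san and 925.3 and 973.8 in +/+ (log2 change -0.38, limma adjusted p = 0.489). Rc3h1 itself had no probe set annotated to it alone. The ratio of 3' to 5' control signals, a measure of RNA integrity, was 0.785 and 0.81 in san/san against 0.701 and 0.826 in +/+ for Gapdh, and 1.18 and 1.17 in san/san against 1.17 and 1.06 in +/+ for Actb. With 2 arrays per genotype the precision is limited, and in bulk RNA fewer cells of a type cannot be told apart from less RNA per cell.

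Promoter windows are shown here for the 3 members called in the test or with the replicate block (Ppp1r15a, Atf4 and Herpud1, the last by 1 of its 2 tested probe sets and, of these fits, with the block) and for Asns and Ddit3, which did not pass. The RefSeq table of GRCm38.p6 held windows of 300 bases, from 250 before to 50 after the annotated start, for 9 of the 10 members. Capitals mark matches, on either strand, to the cyclic AMP response element TGACGTCA in Ppp1r15a, to the ER stress response element II (ATTGG and CCACG with 1 base between them) and the ATF4 composite site TGATGNAA in Herpud1, to TGATGNAA in Asns and to the AP-1 site TGANTCA in Ddit3. Atf4 had no match to any of these. Ppp1r15a lies at chr7:45526219-45526518 on the minus strand, Atf4 at chr15:80254934-80255233 and Herpud1 at chr8:94386179-94386478 on the plus strand. The stretch of Asns is chr6:7693199-7693258 on the minus strand and that of Ddit3 is chr10:127290543-127290583 on the plus strand.
Ppp1r15a: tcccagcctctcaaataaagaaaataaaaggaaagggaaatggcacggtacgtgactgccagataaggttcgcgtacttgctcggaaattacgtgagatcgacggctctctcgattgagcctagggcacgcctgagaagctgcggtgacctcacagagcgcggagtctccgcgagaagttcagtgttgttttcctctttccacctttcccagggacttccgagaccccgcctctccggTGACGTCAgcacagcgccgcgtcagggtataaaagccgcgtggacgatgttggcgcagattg
Atf4: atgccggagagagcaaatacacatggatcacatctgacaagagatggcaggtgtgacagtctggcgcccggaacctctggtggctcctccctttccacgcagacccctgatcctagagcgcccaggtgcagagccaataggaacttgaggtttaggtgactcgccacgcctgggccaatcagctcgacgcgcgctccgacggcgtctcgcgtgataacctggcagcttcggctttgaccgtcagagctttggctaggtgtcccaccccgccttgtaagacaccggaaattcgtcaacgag
Herpud1: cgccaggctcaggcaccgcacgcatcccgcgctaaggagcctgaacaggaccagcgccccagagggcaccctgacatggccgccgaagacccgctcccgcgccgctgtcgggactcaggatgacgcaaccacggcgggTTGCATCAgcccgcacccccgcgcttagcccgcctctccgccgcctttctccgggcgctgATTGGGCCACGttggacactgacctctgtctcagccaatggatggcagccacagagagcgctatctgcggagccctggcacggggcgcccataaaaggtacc
Asns: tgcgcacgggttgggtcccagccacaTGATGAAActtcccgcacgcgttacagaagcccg
Ddit3: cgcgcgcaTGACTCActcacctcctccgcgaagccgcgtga
Of 32851 promoter windows in the table, 1.79% held TGACGTCA, 3.97% TGATGNAA, 0.0365% the ER stress response element II and 7.81% TGANTCA. The ER stress response element (CCAAT and CCACG with 9 bases between them) was in 0.119%, and no member window held it. Trib3 also matched TGATGNAA, and Eif2ak3 matched TGANTCA. Matches lay in Ppp1r15a and Herpud1, which were lower in at least 1 fit, and in Asns, Ddit3, Trib3 and Eif2ak3, which did not pass; a match describes letters and not a bound site.

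Ppp1r15a was the member with the largest difference. It encodes GADD34, which brings protein phosphatase 1 to eIF2alpha, reverses its phosphorylation and so ends the stress response. Its probe set had signals of 93.2 and 114.5 in san/san, against 670.9 and 852.7 in +/+. Both san/san arrays lay far below both +/+ arrays, at 0.136 of the +/+ mean. Ppp1r15a fell, with a log2 change of -2.80 (standard error 0.195, limma adjusted p = 3.24e-05), -2.77 in pair 1 and -2.83 in pair 2. Among the 13585 probe sets past the filter on dim signals it had rank 9 of the falls. The difference passed in all 13 alternatives tried, with adjusted p up to 0.011.

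In the same test 1.06% of all probe sets were called, 0.39% lower and 0.67% higher, and among the members past the filter Ppp1r15a alone was called, 1 of 15 probe sets. Fitted with the replicate number as a block, which compares arrays within a day, 4 of 15 were called, all lower, beside 6.27% of all probe sets (2.69% lower and 3.58% higher). Those 4 were Ppp1r15a, both bright probe sets of Atf4 and 1 of Herpud1. With the block the p-values rest mainly on the variance that limma shares across probe sets, since little spread per probe set is left. Of the other 7 member probe sets, with a mean signal below 21.3, none was tested. All 3 for Ern1 were among them, so 9 of the 10 genes were tested.

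**Figure D1:**
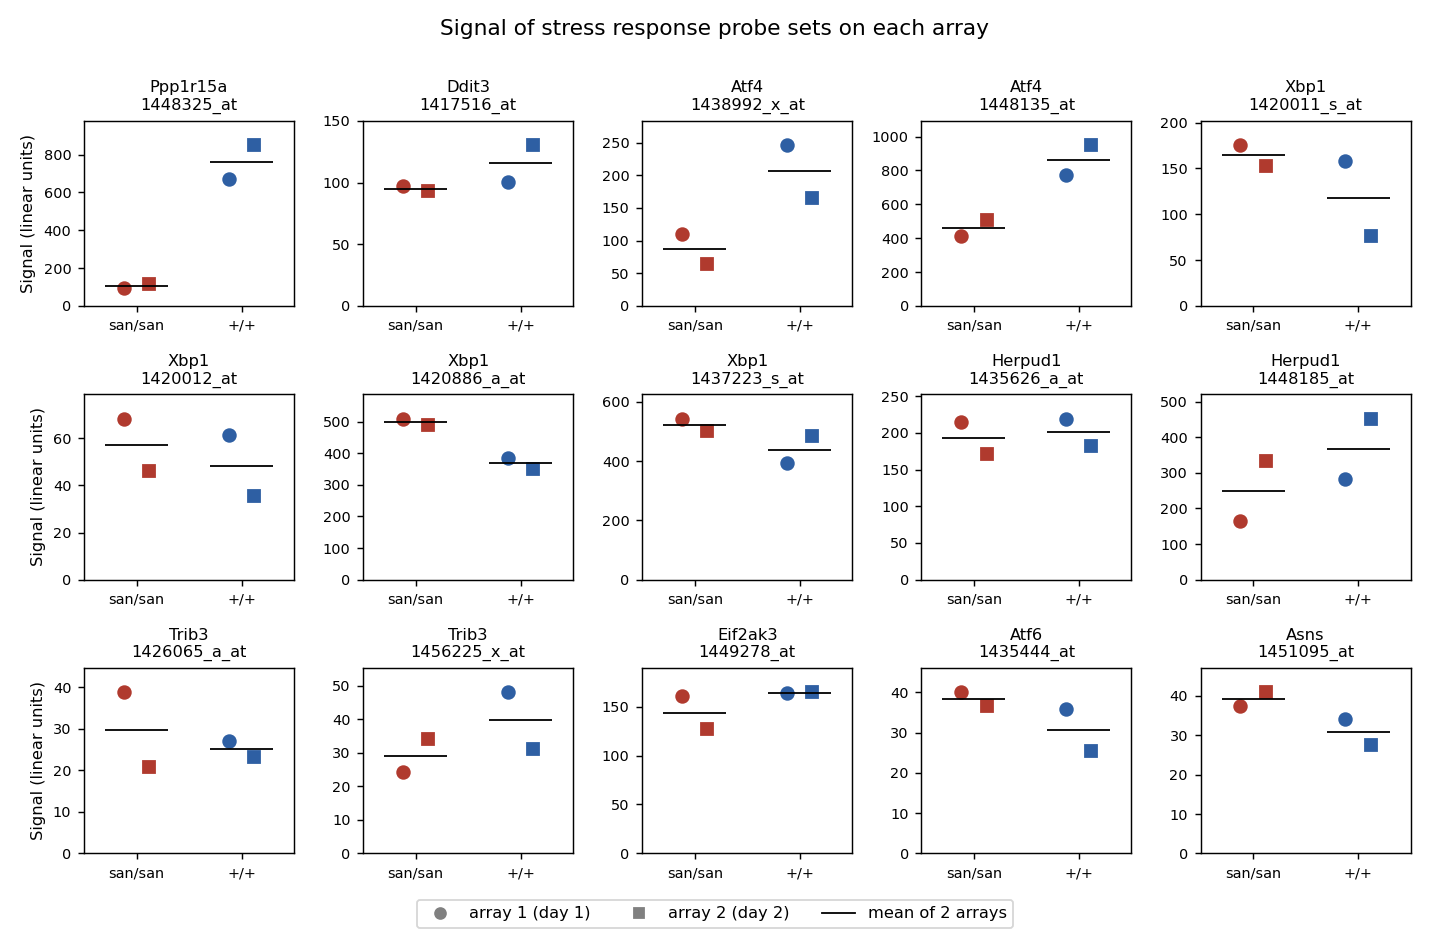
Signal in linear units on each array for the 15 member probe sets past the filter, san/san in red and +/+ in blue; circles are number 1 arrays (day 1), squares number 2 arrays (day 2), and lines the mean of 2 arrays. Ppp1r15a is at 93.2 and 114.5 in san/san against 670.9 and 852.7 in +/+, and both Atf4 probe sets are lower on each san/san array than on either +/+ array.

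Atf4, the central transcription factor of the integrated stress response, had lower signals in san/san by both of its bright probe sets. Probe set 1448135_at had signals of 410.3 and 504.7 in san/san and 775.6 and 951.9 in +/+, with no overlap. Its log2 change was -0.91 (standard error 0.188) and just missed the threshold (limma adjusted p = 0.0514), while it passed with the replicate block (adjusted p = 4.86e-05) and was -0.91 in each pair. Probe set 1438992_x_at, whose suffix marks probes that may also bind other transcripts, had 110.2 and 64.8 in san/san and 246.9 and 165.9 in +/+. It had a log2 change of -1.20 (standard error 0.27, adjusted p = 0.0755), of -1.12 in pair 1 and -1.28 in pair 2, and passed with the block (adjusted p = 1.1e-05). Each of these probe sets passed in 5 of 13 alternatives, and their adjusted p over all 13 reached 0.337 and 0.331. A further Atf4 probe set lay between 0.8 and 3.4 on all arrays and was not tested. ATF4 protein is controlled mainly by translation, which these arrays do not measure.

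**Figure D2:**
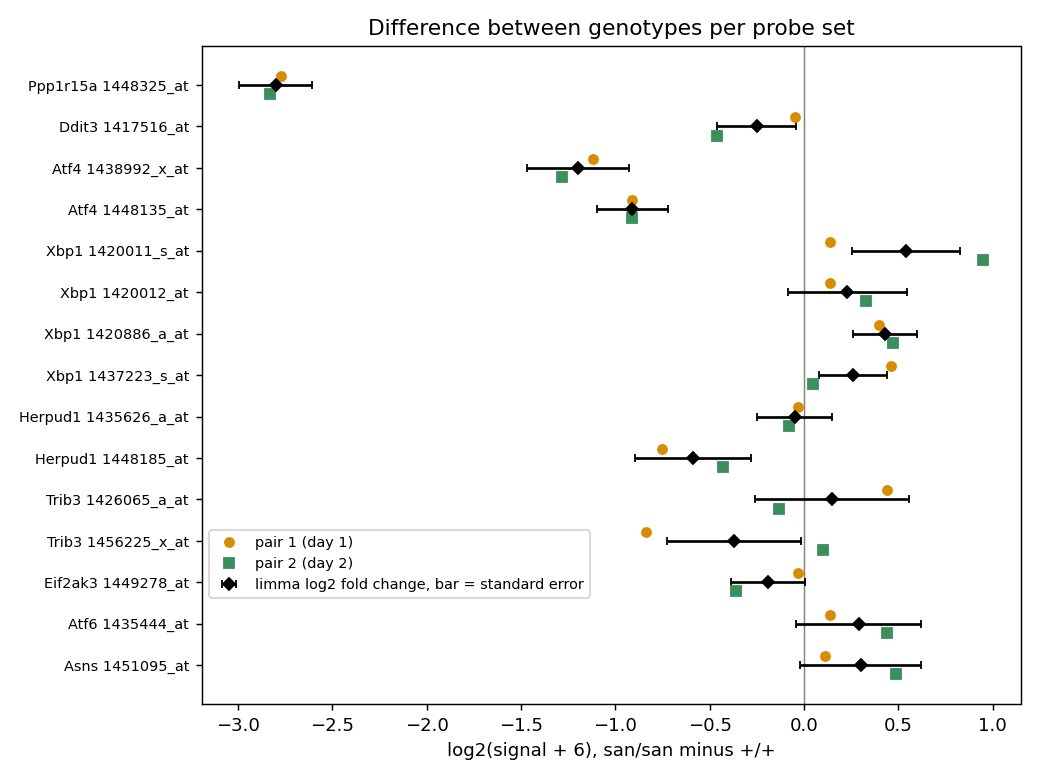
Difference between san/san and +/+ in log2(signal + 6) for the 15 member probe sets: diamonds with bars are the limma log2 fold change and its standard error, circles pair 1 and squares pair 2. Ppp1r15a at -2.80 and the Atf4 probe sets at -1.20 and -0.91 lie left of the rest, and both pairs fall close to each of these estimates.

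The upstream sensors did not pass. Eif2ak3, which encodes the eIF2alpha kinase PERK, had 160.4 and 127 in san/san and 163.9 and 164.6 in +/+ (log2 change -0.19, standard error 0.195, adjusted p = 0.852). San/san array 2 was the low one, and the difference was -0.03 in pair 1. The other Eif2ak3 probe sets never exceeded a signal of 3. Atf6, the cleaved ER sensor, was dim, with 40 and 36.6 in san/san and 35.8 and 25.5 in +/+ (log2 change 0.29, standard error 0.332, adjusted p = 0.877). Ern1, which encodes IRE1, was dim by each probe set, with signals of 1.1 to 22.3 in san/san and 0.9 to 16 in +/+, and no direction could be read from it.

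Xbp1, whose mRNA is spliced by IRE1 to give an active transcription factor, had positive changes by all 4 of its probe sets, and none passed with or without the block. The probe sets are not annotated here to the spliced or the unspliced form. Probe set 1420886_a_at had 509.5 and 487.5 in san/san and 384.6 and 350.9 in +/+, so the genotypes did not overlap (log2 change 0.43, standard error 0.169, adjusted p = 0.409, 0.072 with the block). Probe set 1437223_s_at had 544 and 502.8 in san/san and 394 and 484.3 in +/+, a difference of 0.46 in pair 1 and 0.05 in pair 2. For 1420011_s_at, +/+ array 2 was low at 76.3 beside 158.5 on +/+ array 1, with 175.8 and 152.5 in san/san. Its log2 change of 0.54 was 1.04 without +/+ array 1 (adjusted p = 0.0148) and 0.05 without +/+ array 2, so +/+ array 2 decided its size. The dimmest, 1420012_at, had 0.23 (adjusted p = 0.899).

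Herpud1, an ER membrane protein that helps to degrade misfolded proteins, gave different answers by its 2 probe sets. By 1448185_at the signals were 166 and 333.3 in san/san and 283.8 and 452.3 in +/+. The genotypes overlapped, since array 2 was above array 1 in each genotype, but within each day san/san was lower, with differences of -0.75 in pair 1 and -0.43 in pair 2 on the log2 scale. The log2 change of -0.59 (standard error 0.307) did not pass without the block (adjusted p = 0.587) and did with it (adjusted p = 0.0149). With 1 array left out it spanned -1.08 (without san/san array 2) to -0.10 (without san/san array 1), with -0.92 without +/+ array 1 and -0.26 without +/+ array 2. By 1435626_a_at the signals were 214.8 and 171.7 in san/san and 219.5 and 181.5 in +/+, a change of -0.05 (adjusted p = 0.971, 0.907 with the block). The difference between the probe sets was not tested.

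Ddit3, Asns and Trib3 did not pass. Ddit3, which encodes CHOP itself, had 97 and 93.1 in san/san and 100.3 and 130.7 in +/+, where +/+ array 2 was the high one. Its log2 change was -0.25 (standard error 0.21, adjusted p = 0.788, 0.496 with the block), with -0.05 in pair 1 and -0.46 in pair 2. Asns, asparagine synthetase, was dim, with 37.3 and 40.9 in san/san and 34.2 and 27.5 in +/+ (log2 change 0.30, standard error 0.321, adjusted p = 0.867). A further Asns probe set, 1433966_x_at, lay below the filter and was not tested. It had 12.9 and 15.7 in san/san and 7.6 and 3.2 in +/+. Trib3, a pseudokinase that CHOP and ATF4 induce, was dim, and its 2 probe sets had changes of 0.15 and -0.37 with opposite signs in the 2 pairs (adjusted p = 0.962 and 0.838).

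Across the 15 member probe sets past the filter, 5 lay lower and 4 higher in san/san without overlap of the genotypes, where 17.7% and 20.9% of all probe sets did so. In both pairs 7 were lower and 6 higher, against 28.7% and 33.1% of all probe sets. The members' median log2 change was -0.05, and that of all probe sets tested was 0.015. The members past the filter thus went in both directions.

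**Figure D3:**
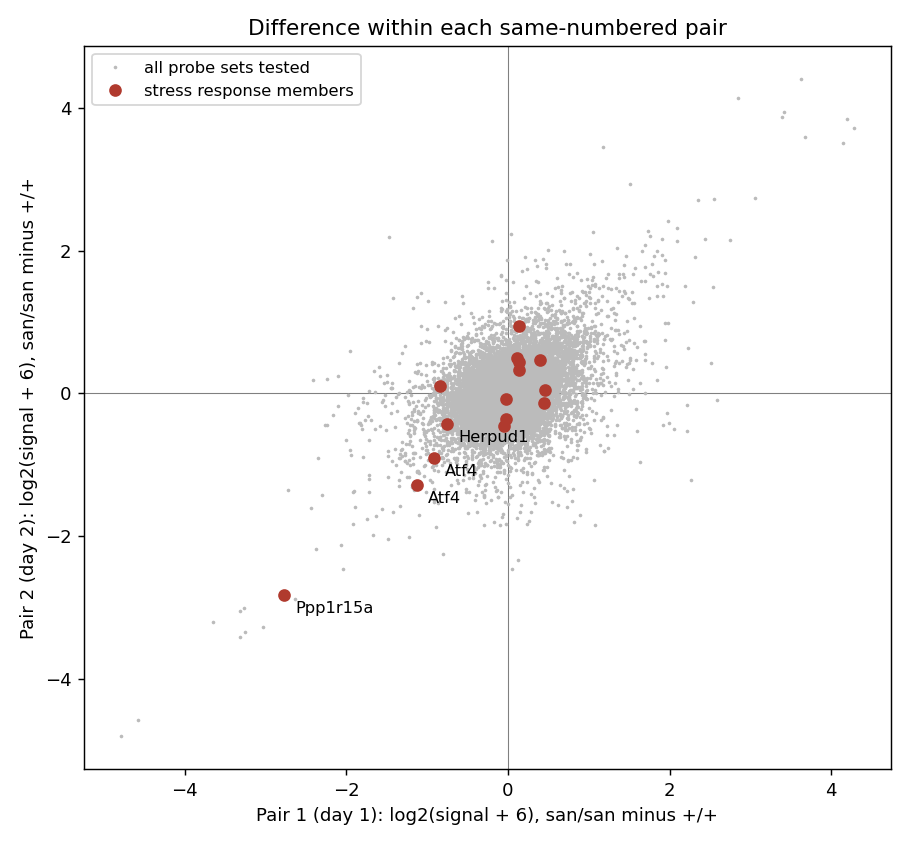
Difference between san/san and +/+ in log2(signal + 6) within pair 1 (horizontal) and pair 2 (vertical) for all 13585 probe sets tested in grey and the 15 member probe sets in red. Ppp1r15a sits at -2.77 and -2.83, among the few probe sets with falls of that size in both pairs, and most members lie within the central cloud.

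The wider pathway was read from 6 lists written with earlier results of these data known, and the brightest tested probe set stood for each gene. The members, Ppp1r15a and Atf4 among them, were not in these lists. Of 137 distinct genes tested, 1 fell and none rose, and 136 did not pass. An unadjusted p under 0.05 was found for 8, beside 9.59% of all genes. In the same fit 0.331% of all 7864 genes fell and 0.776% rose. With the replicate block 2 of the 137 fell and 3 rose, beside 2.14% and 3.9% of all genes. With that block 18.8% of all genes had an unadjusted p under 0.05. The median log2 change of the 137 genes was 0.024.

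Dnajb9 was the gene that fell. It encodes ERdj4, an ER co-chaperone of BiP that stress induces through XBP1 and that holds IRE1 in check. Its signals were 182.3 and 145.4 in san/san and 399 and 323.3 in +/+. Both san/san arrays were lower than both +/+ arrays, and the log2 change was -1.11 (standard error 0.196, limma adjusted p = 0.0231), with -1.10 in pair 1 and -1.12 in pair 2. The call was lost without san/san array 2 (adjusted p = 0.103), without the filter (0.0872) and without the variance trend (0.208).

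Among ER chaperones and folding enzymes Dnajb9 was the 1 of 26 genes that passed, and the list's median was -0.136. Hspa5, which encodes BiP, the main ER chaperone, had 1518.1 and 1886.3 in san/san and 1772.3 and 2372.5 in +/+ (log2 change -0.28, adjusted p = 0.755). By 1427464_s_at Hspa5 had 580.4 and 553.3 in san/san and 806.1 and 655.6 in +/+. That was lower without overlap and did not pass (log2 change -0.36, adjusted p = 0.568). Pdia4, a disulfide isomerase, had -0.63 (adjusted p = 0.254) and was lower with the block (0.0215). Cnpy2, an ER protein, had 0.75 (adjusted p = 0.115) and was higher with the block (0.00478). For ER degradation and translocation 0 of 38 genes passed limma, also with the block (unadjusted p under 0.05 for 0 without and 3 with it), and the log2 changes spanned -0.26 to 0.40. The lectin gene Os9 had 0.40 and the translocon gene Sec62 0.35 (adjusted p = 0.506 and 0.55).

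Of the control of eIF2, 0 of 15 genes passed limma, with or without the block (unadjusted p under 0.05 for 0 without and 2 with it), and the median was 0.028. This list did not hold the members Ppp1r15a and Eif2ak3. The eIF2alpha kinases of double-stranded RNA and of haem shortage, Eif2ak2 and Eif2ak1, had log2 changes of 0.49 and 0.45 (adjusted p = 0.568 and 0.539). Of the ATF4 and CHOP targets 0 of 25 passed limma, with a median of 0.077. An unadjusted p was under 0.05 for 3 without and 7 with the block, beside 9.59% and 18.8% of all genes. With the block 1 gene of this list rose. That was Ddit4, an inhibitor of mTORC1, with 1319.1 and 1015.9 in san/san and 685.9 and 744.4 in +/+ (log2 change 0.69, adjusted p = 0.152, 0.00229 with the block). Jdp2, a repressor of AP-1, had 0.56 (adjusted p = 0.729), with dim signals of 45.8 and 26.9 in san/san and 21.7 and 22.3 in +/+. Its other probe set, 1424972_at, lay below the filter, with 0.64 in pair 1 and -0.80 in pair 2. Stc2, also dim, had -0.56 (adjusted p = 0.733), with 22.3 and 18.6 in san/san and 38.8 and 27.7 in +/+. Atf3 and Chac1, targets of ATF4, lay below the filter, Atf3 with 17.2 and 2.1 in san/san and 26.6 and 21.9 in +/+, and Chac1 with 8.8 and 10.4 in san/san and 11.5 and 14.1 in +/+.

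Aminoacyl-tRNA synthetases, many of which ATF4 induces, had 0 of 18 genes past the limma test, also with the block (unadjusted p under 0.05 for 1 without and 5 with it, beside 9.59% and 18.8% of all genes), and a median of -0.157. Aars had 0.41 and Sars -0.39 (adjusted p = 0.647 and 0.501). Among further sensors, their processing proteases and related factors 0 of 15 passed limma. An unadjusted p was under 0.05 for 1 without and 3 with the block. Map3k5, a kinase that acts downstream of IRE1, rose with the block (log2 change 0.73, adjusted p = 0.214, 0.0145 with the block). Creb3l2, an ER-anchored transcription factor, had 0.64 (adjusted p = 0.624).

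**Figure D4:**
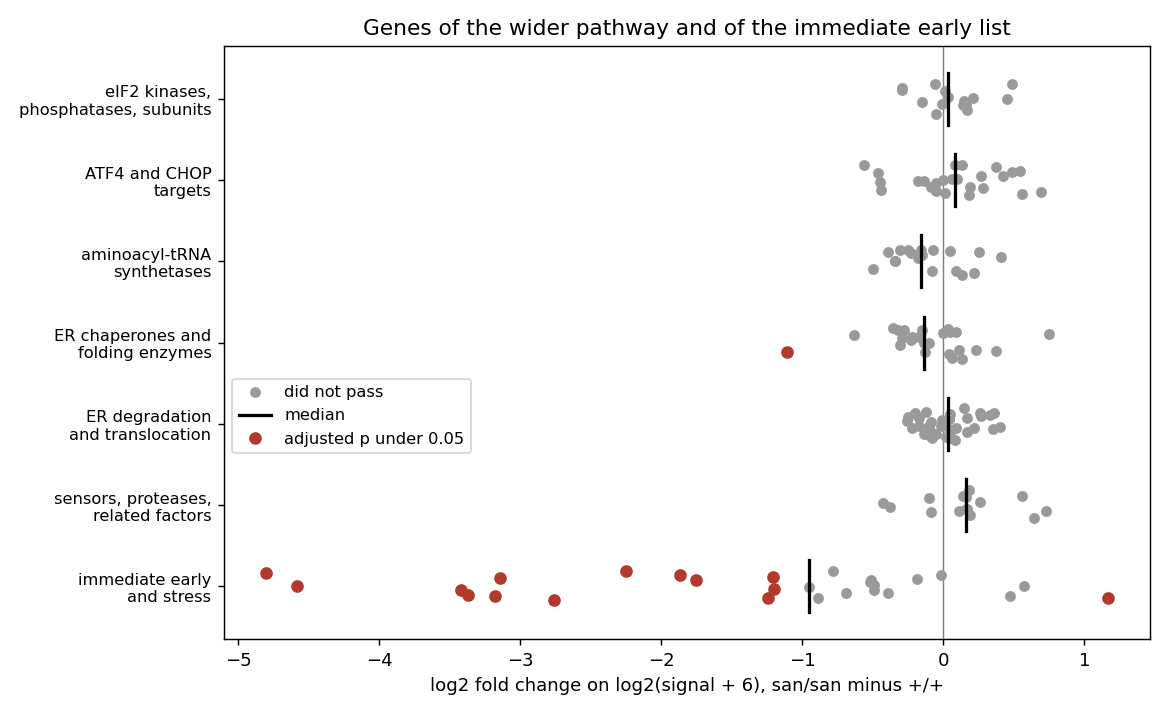
Log2 fold change of san/san over +/+ on log2(signal + 6) for each tested gene of the 6 wider lists and of an immediate early and stress list; red points passed the limma test and black lines are medians. Dnajb9 at -1.11 is the single red point among the wider lists, which hold none of the members. In the immediate early list 13 of 27 genes fell and the median is -0.949.

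The genes nearest to Ppp1r15a and Ddit3 in their profile over the 4 arrays were sought with the members left out. Distance was Euclidean, between log2 deviations from each probe set's mean. Nearest to Ppp1r15a were Junb (0.105), an AP-1 subunit, Tnfaip3 (0.418), an inhibitor of NF-kB signalling, and Dusp1 (0.42), a MAP kinase phosphatase. Junb had 144.1 and 166.1 in san/san and 923.6 and 1263 in +/+. Ddit3 was nearest to Pglyrp2, Rwdd4a and Eif4a1 (0.031 to 0.038), none of which passed the test (adjusted p = 0.738 to 0.803). These are descriptions over 4 arrays.

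Transcripts of immediate early and stress genes are known to react quickly to stimulation and to cell handling. In a list of them that does not hold Ppp1r15a here, 24 of 27 tested genes had negative changes and 3 positive ones. In the test 13 fell, 1 rose and 13 did not pass, where 0.331% of all genes fell and 0.776% rose. The falls were led by Fos (-4.80), Jun (-4.58) and Hspa1a (-3.42), and Jun had -2.09 by its other tested probe set. The riser was Egr2 (1.17, limma adjusted p = 0.0316), and Egr1 and Egr3 had positive changes (0.47 and 0.57) that did not pass. With the replicate block 20 genes of the list fell and 1 rose, beside 2.14% and 3.9% of all genes. The summed signal of the 27 genes was 12252.7 and 12792.3 in san/san, against 23875.6 and 27405.5 in +/+. The part of these genes in the Ppp1r15a, Atf4 and Dnajb9 results was not tested.

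Markers of other cells are given beside these results, because plasma cells are rich in ER transcripts. Of the plasma cell list 0 of 5 tested genes passed limma (1 at an unadjusted p under 0.05); their summed signal was 934.6 and 936.3 in san/san and 1064.9 and 1142.4 in +/+. The defining markers Sdc1 and Tnfrsf17 were below the filter, and the tested ones went both ways. Jchain was at 399.5 and 354.5 in san/san and 471.2 and 521.2 in +/+, and Igha was also lower without overlap (log2 changes -0.39 and -0.30). Prdm1, with 74.8 and 59.5 in san/san and 50 and 40.2 in +/+, and Irf4, with 80.5 and 80.8 in san/san and 73.4 and 58.5 in +/+, were higher without overlap (0.52 and 0.28). The summed signal is mostly that of the bright Jchain and Igha. Myeloid markers moved with genotype: 4 of 14 rose (7 with the replicate block), with Ngp at 2.20, Lyz2 at 1.61 and S100a8 at 1.28, and their summed signal was 3296.4 and 3281.4 in san/san against 1592.5 and 1761.8 in +/+. Of 8 B cell genes none passed, 1 at an unadjusted p under 0.05, and Cr2 fell with the block (log2 change -0.73, block adjusted p = 0.0125). Without overlap of the genotypes 2 of the 8 were higher and 4 lower (sums of 1378.3 and 1486.1 in san/san, 1437.6 and 1497.6 in +/+). In the list for CD8 T or NK cells Gzmk rose, 1 of 10, and 2 rose with the block (sums of 718.9 and 791.7 in san/san, 709.7 and 632.8 in +/+). The list went both ways, with 4 positive and 6 negative changes and a median of -0.054. Without overlap of the genotypes 4 were higher and 2 lower, the latter Prf1 (-0.41) and Klrd1 (-0.26). Of 5 red cell and platelet genes none passed, and 3 had an unadjusted p under 0.05, beside 9.59% of all genes. With the block 3 rose, beside 3.9% of all genes (sums of 1591.3 and 1727.6 in san/san, 1116.1 and 1110.6 in +/+). Those were the red cell genes Alas2 (0.63), Slc4a1 (0.72) and Car2 (0.57). The platelet genes Pf4 (-0.23) and Itga2b (-0.26) had negative changes that did not pass. Alas2 was the brightest gene in these sums. The part of these cells in the members' values was not tested.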

How the data were processed

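The deposited intensity values, linear and 1 for each probe set of an array, came from MOE430A arrays per the file headers; how probes were summarised and background-corrected is not given in the sources used here. By their near-equal trimmed means, the authors had scaled the arrays to a common mean, and no scaling was added. Of 22690 probe sets, 13585 were tested, after removal of 64 controls and of those with a mean under 21.3 (the 40th percentile). The scale was log2(signal + 6), with the rounded 20th percentile as pseudocount; it understates changes of dim probe sets. Symbols came from the platform annotation (20380 probe sets with 1 symbol, 691 with several, 1555 others unlisted), and each identifier was looked up in a RefSeq gene table. san/san was compared with +/+ by limma 3.58.1 (lmFit, eBayes with a variance trend, R 4.3.3), as a two-sided test; p was adjusted by Benjamini-Hochberg over the 13585, and 0.05 was the threshold. The fit was also run on simulated arrays with independent noise and no day effect. That run cannot show how the fit does on arrays that share a day.

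Genotype and number came from the sample titles. The numbers pair the arrays by hybridisation and scan day; across probe sets, the deviations of same-numbered arrays from their genotype means had a correlation of 0.391. The labels name no separate mice, so the p-values rest on a spread between arrays that may be technical. With a block or with an array left out, little spread per probe set remained to estimate. The p-values of those fits rest mainly on the variance that limma shares across all probe sets. Members and lists were chosen with earlier results of these data known. Named genes were the members, Hspa5, Atf3, Dnajb9 and Chac1, the nearest non-member profiles of Ppp1r15a and Ddit3, and cell markers. Per list they were also up to 3 genes past the test or otherwise the 2 largest changes whose genotypes did not overlap. Stc2 was added because its change equalled that of Jdp2 in size at the precision given. Sequences came from RefSeq tables of GRCm38.p6. Alternatives were quantile normalization, median centring, pseudocounts of 1 and 24, no filter or the 60th percentile, no variance trend, the number or the title wording as a block, each array left out and, for lists, averaging the probe sets of each gene. matplotlib 3.10.9 drew the figures.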

Additional observations from a re-analysis of the deposited data

How the results depend on the processing

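Ppp1r15a passed under all 13 alternatives. The count of all probe sets called was 144, with 91 higher and 53 lower. It was 852 (487 higher, 365 lower) with the replicate block, 56 (34 and 22) without the filter and 45 (30 and 15) without the variance trend, and 109 to 360 with 1 array left out (52 to 199 higher and 46 to 161 lower, the largest without +/+ array 1). Member probe sets called numbered 1, against 4 with the replicate block, 3 with the title wording as a block, 2 under quantile normalization, median centring or the filter at the 60th percentile, and 1 to 4 with an array left out. Without +/+ array 1 the 4 were Ppp1r15a, Atf4 1448135_at (-1.05, adjusted p = 0.00197), Herpud1 1448185_at (-0.92, 0.0398; -1.08 to -0.10 with an array left out) and Xbp1 1420011_s_at (1.04, 0.0148). Atf4 1438992_x_at passed without san/san array 1 (-1.56) or +/+ array 2 (-1.48). Genes of the wider lists called numbered 1, against 5 with the block, 0 without the filter or the variance trend, and 0 to 1 with an array left out. Markers of other cells called numbered 5, against 13 with the block and 2 without the variance trend, and 4 to 7 with an array left out. Changes that turned sign, none of them called, were those of Herpud1 1435626_a_at (-0.05; -0.21 to 0.10 with an array left out), Trib3 1426065_a_at (0.15; -0.22 to 0.52) and Xbp1 1420012_at (0.23; -0.12 to 0.59). The causes were not tested. Signals near the low end limit Ern1, Trib3, Atf6, Asns, Atf3 and Chac1.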

Other observations

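For 3 genes of the wider lists, picked with their values in view, a further tested probe set is described here. Sars, the seryl-tRNA synthetase, had a log2 change of -0.39 by its brightest probe set (limma adjusted p = 0.126 with the replicate block), and 1452000_s_at, also lower without overlap, had 207.1 and 269.9 in san/san and 295.9 and 434.3 in +/+, a change of -0.59 that passed with the block (adjusted p = 0.0144) and not without it (0.387). Sec62, by 1433704_s_at, had higher signals in san/san, with 493.8 and 459.7 in san/san against 375 and 372 in +/+, and lower ones by 1454697_at, with 246.8 and 262.1 in san/san against 275.6 and 318.7 in +/+; neither passed (adjusted p = 0.55 and 0.786). Both tested probe sets of Cnpy2 had similar changes, 0.75 and 0.73, and both passed with the block (adjusted p = 0.00478 and 0.0104).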
